A study of Mus musculus with 6 samples.

Results

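The intervals described here lie at 9 genes that encode transcription factors and a coactivator of the skeletal muscle programme, Myod1, Myf6, Mef2a, Mef2c, Mef2d, Six4, Six5, Eya3 and Tead1. An interval of the deposited ATAC-seq count table was taken as a member where it overlapped the annotated body of one of these genes or came within 10 kb of one of its transcription start sites (TSS), by the GENCODE vM1 annotation of the mm9 mouse genome. This gave 43 of the 39768 intervals in the table. Tead1 held 13 of them, Mef2c 9, Mef2d 6, Myod1 4, Myf6 and Six5 3 each, Mef2a and Eya3 2 each, and Six4 1. The rule used positions only, and the genes were chosen with earlier results of these data known.

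In ATAC-seq a transposase, Tn5, inserts sequencing adapters where DNA is not wrapped around nucleosomes, and the more fragment ends an interval collects, the more open is its chromatin. The study asked whether transcription needs the histone variant H2A.Z once muscle fibres no longer divide. It used ATAC-seq to compare how open the chromatin is with H2A.Z and after its removal. All mice were C57BL/6, 7 weeks old and carried floxed alleles of both H2A.Z genes (H2A.Z-1 flox/flox and H2A.Z-2 flox/flox), and 50000 nuclei went into each library. The 3 CTL libraries came from mice without Cre and the 3 libraries labelled H2A.Z dKO from mice with the HSA CRE transgene. The HSA promoter, that of skeletal alpha-actin, drives Cre in muscle fibres and not in the vessels, connective tissue and satellite cells of the same muscle. The sample labels name tibialis anterior nuclei purified by ultracentrifugation, whereas the methods describe hind limb muscles homogenized in a Dounce. Nothing in the labels says that replicates came from separate animals, so the p-values below measure the spread between these libraries, which may be technical.

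The myogenic regulatory factors MyoD (Myod1) and MRF4 (Myf6) are basic helix-loop-helix proteins that pair with E proteins and bind E-boxes at muscle genes. MyoD commits precursor cells to muscle and MRF4 is the family member most abundant in adult fibres. MEF2A, MEF2C and MEF2D are MADS-box factors that bind an A/T-rich box and work with the helix-loop-helix factors, and class IIa histone deacetylases hold them in check. SIX4 and SIX5 are homeobox proteins of the family that binds the MEF3 motif, and EYA3 is a coactivator and phosphatase that such proteins recruit. TEAD1 binds the MCAT element of muscle promoters and is the DNA-binding partner of YAP and TAZ.

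Totals of counts over all intervals were 3520008 to 6117245 per library, and each library gave 3462 to 6251 counts to the 43 member intervals. The share of counts in promoter intervals, those with their midpoint within 1 kb of any annotated TSS, was 74.5% to 74.9% in CTL. H2A.Z dKO replicate 1 had 77.0%, replicates 2 and 3 of that group 73.2% and 73.5%, so the first of these stands apart from the other libraries. In these counts no clear loss was seen at the targeted gene. The 2 intervals between exons 2 and 4 of H2afz (H2A.Z-1), the segment that Cre removes, summed to 12.4 ± 2.83 CPM, the counts scaled to library size by TMM, in CTL, against 11.3 ± 1.28 CPM in H2A.Z dKO (each SD, n = 3). The ranges overlapped, from 9.345 to 14.93 CPM and from 10.0 to 12.55 CPM, a two-sided exact permutation test gave p = 0.6, and 0.1 is the lowest p that 6 libraries in groups of 3 allow. Nuclei of cells without Cre keep this segment, so these sums could miss a partial loss. The floxed exons 4 and 5 of H2afv (H2A.Z-2) held 0 intervals of the table, so H2A.Z dKO below names the libraries so labelled. Of 20 muscle fibre marker genes, 14 had a promoter interval, with sums of 630.0 to 774 CPM in CTL and 659 to 804 CPM in H2A.Z dKO. None of 12 macrophage markers had one. Of 11 satellite cell markers 5 had one, not Pax7 or Myf5, with sums of 141 to 152 CPM in CTL and 152 to 164 CPM in H2A.Z dKO, and of 12 fibroblast markers 7 had one, with 124 to 148 CPM and 137 to 167 CPM. Endothelial markers, 7 of 14 with a promoter interval, are given with Mef2c below. In muscle nuclei taken as a whole, fewer nuclei of a type and less open chromatin in each nucleus cannot be told apart.

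Sequences are shown for the members on which the results turn, since the DNA that these factors bind can be read in their own regulatory regions. Each is mm9 sequence on the strand of the gene, from a window of 200 bp centred on the interval, cut to the part outside annotated exons where the window reached one. Capitals mark matches on either strand to the myogenic E-box CAGCTG, the MEF2 box, the CArG box, the MCAT element CATTCC, the MEF3 motif TCAGGTT and the GC box GGGCGG. The Myod1, Six5 and Tead1 windows lie on the promoter interval with the highest level of the gene and the Mef2d promoter window on the one that leads once the width of the counted ends is allowed for. The Mef2c window around the lowest log2 fold change lies on the distal interval with the highest level of the gene. The windows of Myf6, of the Mef2d upstream interval and the other two of Mef2c were added after their values or matches had been seen.
Myod1 promoter, chr7:53631625-53631824, plus strand: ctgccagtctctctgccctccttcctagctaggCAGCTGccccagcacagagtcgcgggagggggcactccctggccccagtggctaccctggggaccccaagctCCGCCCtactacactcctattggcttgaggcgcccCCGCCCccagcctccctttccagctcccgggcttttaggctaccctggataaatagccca
Myf6 promoter, chr10:106931786-106931946, minus strand: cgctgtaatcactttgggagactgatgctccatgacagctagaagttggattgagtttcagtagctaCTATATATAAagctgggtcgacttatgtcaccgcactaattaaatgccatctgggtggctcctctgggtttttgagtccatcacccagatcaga
Mef2d promoter, chr3:87946106-87946293, plus strand: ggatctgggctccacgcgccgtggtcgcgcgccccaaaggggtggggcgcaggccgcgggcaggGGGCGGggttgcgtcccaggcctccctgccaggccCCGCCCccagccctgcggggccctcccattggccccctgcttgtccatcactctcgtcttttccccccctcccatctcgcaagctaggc
Mef2d upstream interval, chr3:87942256-87942455, plus strand: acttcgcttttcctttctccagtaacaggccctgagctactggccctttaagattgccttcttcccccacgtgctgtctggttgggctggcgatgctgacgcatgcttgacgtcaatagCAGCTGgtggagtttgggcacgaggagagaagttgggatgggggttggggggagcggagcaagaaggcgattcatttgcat
Mef2c intron, upstream of the internal TSS, chr13:83654310-83654509, plus strand: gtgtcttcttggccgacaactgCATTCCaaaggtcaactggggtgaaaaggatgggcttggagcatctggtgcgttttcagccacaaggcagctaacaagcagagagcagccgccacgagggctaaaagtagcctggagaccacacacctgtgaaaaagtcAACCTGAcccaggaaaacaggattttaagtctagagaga
Mef2c intron, the interval with the lowest log2 fold change, chr13:83711160-83711359, plus strand: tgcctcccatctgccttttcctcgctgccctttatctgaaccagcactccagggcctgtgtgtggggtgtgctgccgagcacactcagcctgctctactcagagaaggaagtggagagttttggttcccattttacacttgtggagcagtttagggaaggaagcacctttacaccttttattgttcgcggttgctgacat
Mef2c intron, the most downstream, chr13:83743184-83743383, plus strand: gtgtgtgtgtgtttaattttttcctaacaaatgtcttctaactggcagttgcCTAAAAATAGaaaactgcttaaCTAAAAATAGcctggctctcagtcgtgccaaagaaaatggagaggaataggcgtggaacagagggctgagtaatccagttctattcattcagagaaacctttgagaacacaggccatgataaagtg
Six5 promoter, chr7:19679197-19679396, plus strand: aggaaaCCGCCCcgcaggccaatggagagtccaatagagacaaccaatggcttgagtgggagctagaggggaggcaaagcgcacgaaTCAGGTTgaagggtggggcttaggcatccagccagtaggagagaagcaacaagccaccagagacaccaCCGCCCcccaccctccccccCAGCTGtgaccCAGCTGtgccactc
Tead1 internal promoter, chr7:119885347-119885546, plus strand: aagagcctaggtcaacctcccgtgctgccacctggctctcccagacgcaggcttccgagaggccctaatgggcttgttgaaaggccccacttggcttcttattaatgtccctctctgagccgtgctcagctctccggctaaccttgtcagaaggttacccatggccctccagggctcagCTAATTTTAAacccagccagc

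A MEF2 box lay in 3 of the 21 member windows at promoters (14.29%), against 258 of the 20826 windows of the same length at all promoter intervals (1.239%). The 3 are the promoters of Myf6 (CTATATATAA), Mef2a (CTAAAAATAG) and Tead1 (CTAATTTTAA), each match inside the interval itself. The most downstream Mef2c interval, which is distal, held 2 copies of CTAAAAATAG, and 1 of 22 distal member windows (4.545%) held the box against 4.947% of all distal ones. The myogenic E-box was in 4 promoter windows (19.05%, against 11.93% of all) and in 6 distal windows (27.27%, against 23.7%), and the Six5 promoter held 2 copies together with the MEF3 motif. The overlapping pair of Myod1 intervals shares its match, so the 4 promoter windows stand for 3 places. The wider E-box CANNTG, which includes CAGCTG, was in 11 promoter windows (52.38%, against 45.57%) and 15 distal ones (68.18%, against 69.92%), which without shared matches are 10 and 12 places. MCAT was in 1 promoter window (4.762%, against 6.967%) and 4 distal ones at 3 places (18.18%, against 12.91%), and MEF3 in 1 of each (4.762% and 4.545%, against 1.589% and 3.263%). The GC box was in 11 promoter windows at 10 places (52.38%, against 56.96%) and 1 distal window (4.545%, against 12.6%), and the CArG box in none, where 0.7299% and 1.225% of all windows held it. These are letters in a window, counted without a test, and say nothing of which protein sits there.

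By position, 20 of the 43 intervals had their midpoint within 1 kb of a TSS of the member gene itself, 22 were distal, more than 1 kb from any annotated TSS, and 1 of the Six5 intervals was nearer to a TSS of the upstream neighbour Dmpk. Myod1, a gene of 2619 bp on the plus strand at chr7:53631844-53634462, had an overlapping pair over its promoter, a distal interval 5006 bp upstream and another 2732 bp downstream of the TSS. Myf6, 1870 bp on the minus strand at chr10:106929916-106931785, had 2 promoter intervals and a distal interval 5109 bp upstream. Its neighbour Myf5 starts 8595 bp downstream of the Myf6 TSS and had no promoter interval of its own.

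Mef2a (minus strand, chr7:74376049-74517744), Six4 (minus strand, chr12:74201246-74214401) and Eya3 (plus strand, chr4:132194902-132280680) had intervals at their first promoters only. Mef2d (plus strand, chr3:87946294-87976008) had 3 promoter intervals and 3 upstream of them. Six5 (plus strand, chr7:19679893-19683694) had all 3 of its intervals upstream of its TSS.

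The largest genes held most of the distal intervals. Mef2c (plus strand, chr13:83643033-83806684) had no interval at its first TSS, and its 3 promoter intervals lay at an internal TSS 20943 bp into the gene, with 6 further intervals in introns. A reference gap of 100 bp, chr13:83663705-83663804, borders this cluster and runs into the first bases of the promoter interval at chr13:83663800-83663951. Tead1 (plus strand, chr7:119822832-120050319) had 3 promoter intervals and 10 distal ones, all intronic. A pair of its promoter intervals lies at the first TSS, where the antisense lincRNA 2310014F06Rik starts 548 bp away, and the third, the most open of them, at an internal TSS.

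**Figure D1:**
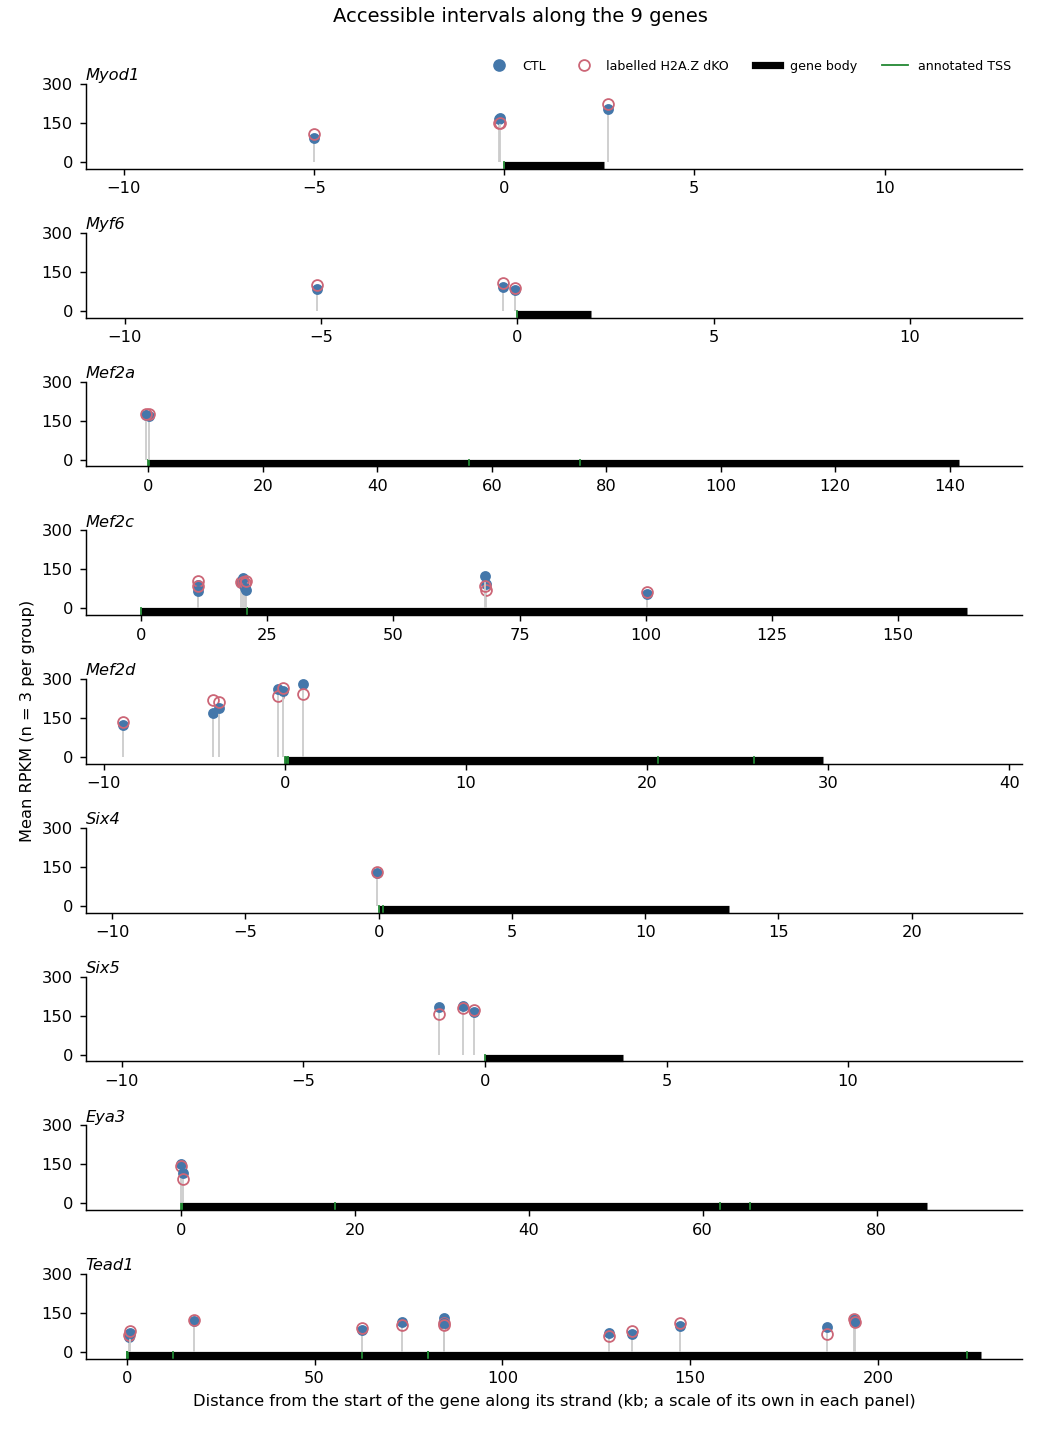
Mean RPKM of each interval (y axis, n = 3 libraries per group) against its distance from the start of the gene along the strand of the gene in kb (x axis, a scale of its own in each panel), with the gene body as a black bar and annotated TSS as green ticks. Filled points are CTL and open points H2A.Z dKO; the points of both groups lie close together at nearly every interval, and Tead1 and Mef2c hold most of the intervals far from their first TSS.

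Levels between genes were compared per length, as RPKM, the fragment ends of an interval divided by its width and by the ends in all intervals of the library, at the promoter interval of each gene with the highest mean. Mef2d led with 268, 259 and 318 RPKM in CTL replicates 1, 2 and 3, a mean of 282 ± 31.8 RPKM (SD, n = 3), and its CTL libraries did not overlap those of the next gene. Six5 followed with 188 ± 3.15 RPKM, Mef2a with 173 ± 21.3, Myod1 with 170.1 ± 34.6, Eya3 with 151 ± 10.0 and Six4 with 127 ± 18.9 (each SD, n = 3), and each of these overlapped its neighbour in the order. Mef2c had 115 ± 1.81 RPKM (SD, n = 3), apart from Myf6 below it with 90.8 ± 4.07 RPKM (SD, n = 3), which overlapped Tead1 with 86.4 ± 18.4 RPKM (SD, n = 3). Among all promoter intervals the Mef2d level stood at the 95.4th percentile, Six5 at the 78.2nd, Myod1 at the 68.3rd, Myf6 at the 21.2nd and Tead1 at the 14.2nd.

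Narrow intervals count ends from a zone wider than themselves, because the authors extended each end by 37 bp, and the leading Mef2d and Mef2c intervals are 25 and 42 bp wide. With the width enlarged to allow for this, an alternative added after the data had been seen, the leading Mef2d interval became the one 89 bp upstream of the TSS, with 223 ± 12.1 RPKM (SD, n = 3), still apart from Six5 with 166 ± 2.79 RPKM (SD, n = 3). Mef2c then led with the interval beside the reference gap, 57.5 ± 20.5 RPKM (SD, n = 3), and fell below Tead1 with 78.4 ± 16.7 and Myf6 with 66.4 ± 2.98 RPKM (each SD, n = 3), 3 genes whose CTL libraries overlapped in order. The percentiles moved too: the 25 bp Mef2d interval fell from the 95.4th to the 53.9th and the 42 bp Mef2c interval from the 29.5th to the 9.85th, while Six5 stood at the 82.7th, Myod1 at the 77.4th, Myf6 at the 21.6th and Tead1 at the 30.2nd.

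Between CTL and H2A.Z dKO, none of the 43 intervals passed an adjusted p of 0.05, and accessibility at the 9 genes was within 2-fold of CTL at nearly all of them. The edgeR quasi-likelihood test with Benjamini-Hochberg adjustment over all intervals called 0 of 39768 intervals (0%), as did DESeq2 and limma voom, and the lowest adjusted p of a member was 0.972. At an unadjusted p under 0.05 edgeR gave 4 of 43 members, 2 higher and 2 lower in H2A.Z dKO, where 4.95% of all intervals met that limit (2.64% higher and 2.31% lower), and the 2 lower ones overlap each other. The libraries of the groups did not overlap at 2 members, 1 higher and 1 lower, where 10.8% of all intervals were so (5.22% higher and 5.63% lower). Member log2 fold changes ran from -0.54 to 0.53, with 25 above 0 and 18 below (58.1% above, against 52.5% of all intervals) and a median of 0.058, against 0.012 for all. The 95% confidence interval of the fold change lay within 2-fold for 41 members (95.3%, against 91.4% of all intervals) and within 1.5-fold for 18, where 49.6% of all intervals met that closer limit. At the promoters of the 9 genes, 1 of 20 intervals had an unadjusted p under 0.05, where 3.83% of all promoter intervals did, 12 were above 0, against 52.7% of all, and 19 were bounded within 2-fold, against 96.2%. Of their 22 distal intervals 3 had an unadjusted p under 0.05, against 6.19% of all distal ones, 13 were above 0, against 52.3%, and 21 were bounded within 2-fold, against 86.1%. Without H2A.Z dKO replicate 1 the median over the 43 was -0.0077, with 21 above 0, and 1 member had an unadjusted p under 0.05, where 7.95% of all intervals did.

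**Figure D2:**
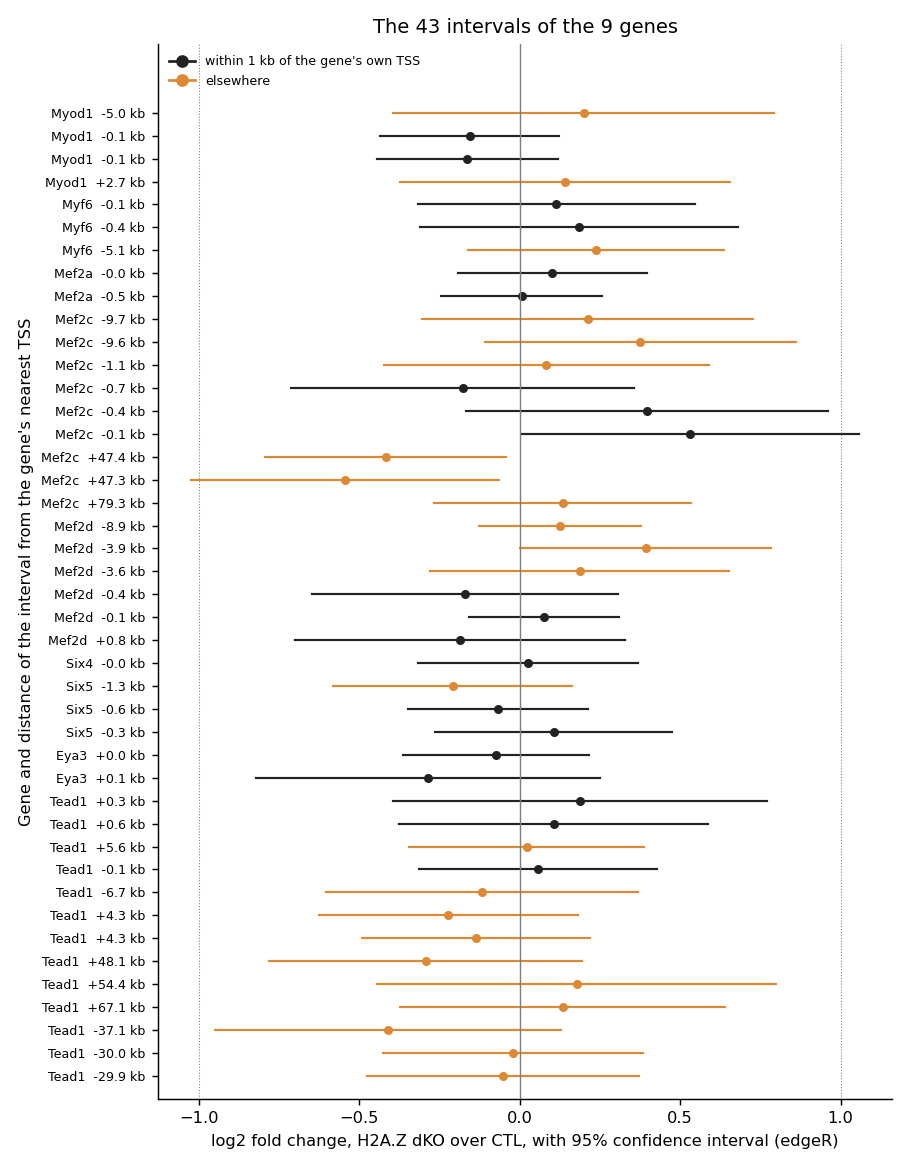
Log2 fold change of H2A.Z dKO over CTL (x axis, edgeR, 3 libraries per group) for each of the 43 intervals, labelled by gene and distance from the nearest TSS of that gene (y axis); bars are 95% confidence intervals, dotted lines mark 2-fold, black marks promoters and orange other intervals. Points scatter on both sides of 0 between -0.54 and 0.53 and the bars of 41 intervals stay within the dotted lines.

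**Figure D3:**
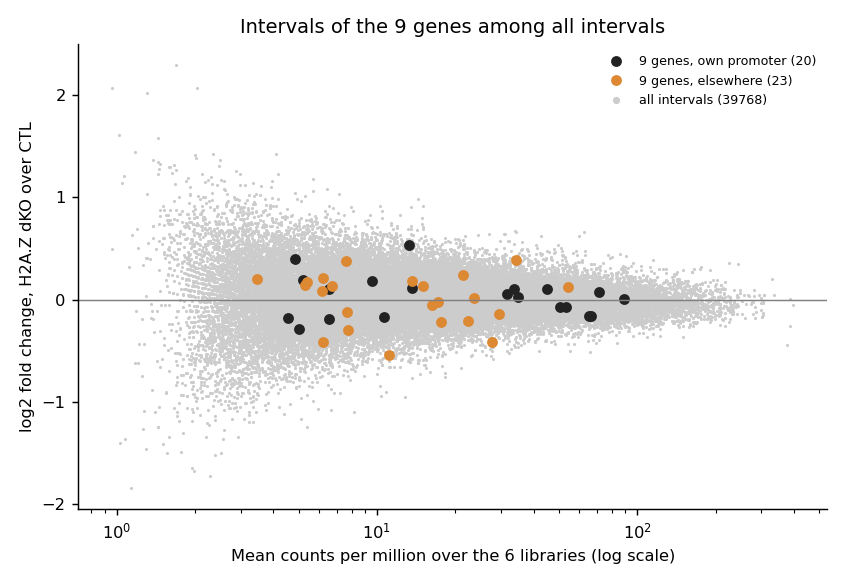
Log2 fold change of H2A.Z dKO over CTL (y axis) against the mean CPM over the 6 libraries (x axis, log scale) for all 39768 intervals (grey), the 20 promoter intervals of the 9 genes (black) and their 23 other intervals (orange). The members lie inside the grey cloud at every level.

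Among the myogenic regulatory factors, Myod1 and Myf6 had no interval with an unadjusted p under 0.05. The Myod1 promoter (Peak_15365, chr7:53631522-53631926) measured 182, 131 and 197 RPKM in CTL replicates 1, 2 and 3 and 138, 159 and 158 RPKM in H2A.Z dKO. CTL replicate 2 was lower than every H2A.Z dKO library and the other two CTL libraries higher, so the groups overlapped. The log2 fold change was -0.16 (SE 0.14, 95% confidence interval -0.45 to 0.12), and the adjusted p of edgeR was 0.974. It was -0.32 without CTL replicate 2, -0.10 without CTL replicate 1 and -0.053 without CTL replicate 3. The distal interval downstream of Myod1 (Peak_15366), only 25 bp wide, had 19 to 33 counts per library and 202 ± 33.6 RPKM (SD, n = 3) in CTL against 222 ± 10.2 RPKM (SD, n = 3) in H2A.Z dKO. The interval 5006 bp upstream, at the distance where a distal regulatory region of Myod1 is known, had 12 to 22 counts per library, and the confidence interval of its fold change reached from 0.760 to 1.73 times CTL.

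At Myf6, the interval on the promoter that holds the MEF2 box (Peak_23269) measured 96.1, 65.5 and 74.0 RPKM in CTL and 76.4, 95.9 and 86.9 RPKM in H2A.Z dKO. The groups overlapped, with the highest value in CTL replicate 1 and a close second in H2A.Z dKO replicate 2. The interval 362 bp upstream (Peak_23270) measured 95.1, 90.4 and 87.0 RPKM in CTL and 72.97, 139 and 103.6 RPKM in H2A.Z dKO, where the libraries of the second group lay on both sides of the first. The distal interval (Peak_23271) had the smallest p of the gene, with a log2 fold change of 0.24 (SE 0.19) and an adjusted p of 0.972 in edgeR. All 3 Myf6 intervals had a log2 fold change above 0, from 0.11 to 0.24. At Peak_23269 and Peak_23270 this sign rested on single libraries, and at Peak_23271 only its size did. Peak_23269 had -0.0042 without CTL replicate 2 and 0.31 without CTL replicate 1. Peak_23270 ranged from -0.048 (without H2A.Z dKO replicate 2) to 0.38 (without H2A.Z dKO replicate 1), and Peak_23271 had 0.066 without CTL replicate 2 and 0.36 without CTL replicate 3.

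Of the MADS-box factors, Mef2a differed at neither of its intervals beyond the spread between libraries. Its leading promoter interval (Peak_15545, 511 bp, the widest member) measured 196, 167 and 155 RPKM in CTL and 181, 151 and 190.2 RPKM in H2A.Z dKO, and the groups overlapped. The log2 fold change was 0.0063 (SE 0.12, 95% confidence interval -0.24 to 0.26), with -0.061 without CTL replicate 3 and 0.11 without CTL replicate 1. The interval over the TSS (Peak_15544) measured 162 to 172 RPKM in CTL and 153 to 202 RPKM in H2A.Z dKO, with a log2 fold change of 0.10 (SE 0.14) that was -0.032 without H2A.Z dKO replicate 1 and 0.20 without H2A.Z dKO replicate 2.

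Mef2c held 3 of the 4 members with an unadjusted p under 0.05, and they point in both directions. The promoter interval beside the reference gap (Peak_29654) measured 72.5, 95.9 and 45.2 RPKM in CTL and 136, 85.9 and 88.4 RPKM in H2A.Z dKO. CTL replicate 3 was the lowest and H2A.Z dKO replicate 1 the highest, and the groups overlapped. The log2 fold change was 0.53 (SE 0.25) with an unadjusted p of 0.0478 and an adjusted p of 0.972 in edgeR. Without CTL replicate 3 it was 0.33 (edgeR unadjusted p = 0.238), and without H2A.Z dKO replicate 1 it was 0.24 (edgeR unadjusted p = 0.319), while without CTL replicate 1 it was 0.54 (edgeR unadjusted p = 0.0957). It rose without CTL replicate 2, H2A.Z dKO replicate 2 or H2A.Z dKO replicate 3, to 0.79, 0.66 and 0.64 (edgeR unadjusted p = 0.0122, 0.0275 and 0.0296).

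In the Mef2c intron 47283 bp beyond the internal TSS, an interval (Peak_29656, chr13:83711206-83711312) was lower in all 3 H2A.Z dKO libraries, with 102, 163 and 109.9 RPKM in CTL against 73.9, 99.5 and 84.5 RPKM. The lowest CTL library lay just above the highest H2A.Z dKO library, and CTL replicate 2 far above the rest. The log2 fold change was -0.54 (SE 0.23), or 0.686 times CTL, with an unadjusted p of 0.028 and an adjusted p of 0.972 in edgeR, and without CTL replicate 2 it was -0.30 (edgeR unadjusted p = 0.227). Without H2A.Z dKO replicate 1 or 3 it was -0.46 and -0.54 (edgeR unadjusted p = 0.0592 and 0.0541). It was larger in size without CTL replicate 1, CTL replicate 3 or H2A.Z dKO replicate 2, at -0.69, -0.61 and -0.65 (edgeR unadjusted p = 0.0141, 0.0309 and 0.0251). The wider interval that contains it (Peak_29655, 333 bp) counts the same fragment ends again and had a log2 fold change of -0.42 (SE 0.18, unadjusted p = 0.0309 in edgeR), and -0.25 without CTL replicate 2 (edgeR unadjusted p = 0.229). It was -0.39 without CTL replicate 3 and -0.38 without H2A.Z dKO replicate 3 (edgeR unadjusted p = 0.0819 and 0.077). With CTL replicate 1, H2A.Z dKO replicate 1 or H2A.Z dKO replicate 2 left out it was -0.60, -0.41 and -0.47 (edgeR unadjusted p = 0.00537, 0.0277 and 0.0362).

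Mef2c is also used by endothelial cells, in which the HSA promoter does not drive Cre. The promoter intervals of 7 of 14 endothelial marker genes summed to 126 to 136 CPM in CTL and 97.8 to 116 CPM in H2A.Z dKO, ranges that did not overlap (exact permutation test, two-sided p = 0.1, the lowest the design allows). The defining markers Pecam1, Emcn, Erg, Sox17 and Sox18 were among the 7 genes without a promoter interval. The part of these cells in the lower Mef2c intron was not tested.

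Of the other 6 Mef2c intervals 5 had a log2 fold change above 0 and 1 below, which makes 6 of the 9 above. In the intron 9567 bp upstream of the internal TSS (Peak_29650), CTL measured 75.2, 69.1 and 51.1 RPKM and H2A.Z dKO 76.6, 85.7 and 97.6 RPKM. The MCAT and MEF3 matches of its window lie outside the interval itself. Peak_29650 was the member whose H2A.Z dKO libraries all lay above CTL, by a narrow margin between CTL replicate 1 and H2A.Z dKO replicate 1. Its log2 fold change was 0.37 (SE 0.23) with an unadjusted p of 0.123 in edgeR. The promoter interval 432 bp upstream of the internal TSS (Peak_29653), with 17 to 40 counts per library, gave 0.40 (SE 0.27, unadjusted p = 0.158 in edgeR) with overlapping groups, and 0.16 without H2A.Z dKO replicate 1. The narrow promoter interval with the highest level of the gene (Peak_29652) gave -0.18 (SE 0.26), with -0.061 without H2A.Z dKO replicate 2 and -0.30 without H2A.Z dKO replicate 3, and the most downstream interval (Peak_29657), with both MEF2 boxes, measured 52.2 to 61.9 RPKM in CTL and 55.0 to 65.8 RPKM in H2A.Z dKO.

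At Mef2d, the upstream interval with a myogenic E-box (Peak_6183, chr3:87942267-87942443), 3939 bp from the TSS, measured 174, 196 and 134 RPKM in CTL and 282, 172 and 206 RPKM in H2A.Z dKO. H2A.Z dKO replicate 1 was far above the rest and replicate 2 within the range of CTL. The log2 fold change was 0.39 (SE 0.19), with an unadjusted p of 0.0496 and an adjusted p of 0.972 in edgeR, and fell to 0.14 without H2A.Z dKO replicate 1 (edgeR unadjusted p = 0.402). Without CTL replicate 3 it was 0.27 (edgeR unadjusted p = 0.219) and without CTL replicate 1 0.42 (edgeR unadjusted p = 0.0845). It was higher without CTL replicate 2, H2A.Z dKO replicate 2 or H2A.Z dKO replicate 3, at 0.52, 0.55 and 0.44 (edgeR unadjusted p = 0.02965, 0.0104 and 0.047).

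The rest of Mef2d differed less. Its neighbour 3607 bp upstream (Peak_6184) gave 0.19 (SE 0.23), and from -0.055 (without H2A.Z dKO replicate 1) to 0.34 (without H2A.Z dKO replicate 3) with 1 library left out. The 3 upstream intervals together summed to 94.0 ± 9.77 CPM (SD, n = 3) in CTL and 110.0 ± 12.6 CPM (SD, n = 3) in H2A.Z dKO, with p = 0.2 in a two-sided exact permutation test. The promoter interval 89 bp upstream (Peak_6186) measured 258, 262 and 237 RPKM in CTL and 275, 261 and 263 RPKM in H2A.Z dKO. Its groups overlapped and its log2 fold change of 0.076 (SE 0.11, 95% confidence interval -0.16 to 0.31) was the most precise of the 43, with 0.026 (without H2A.Z dKO replicate 1) to 0.11 (without CTL replicate 2) when 1 library was left out. The leading narrow interval (Peak_6187) had 24 to 44 counts per library and a log2 fold change of -0.19 (SE 0.25), which was -0.41 without H2A.Z dKO replicate 1, -0.10 without CTL replicate 3 and -0.040 without H2A.Z dKO replicate 3.

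Six4 has a single interval, over its promoter (Peak_27629), with 145, 107 and 129.5 RPKM in CTL and 145, 135 and 108 RPKM in H2A.Z dKO. The groups covered nearly the same range, and the log2 fold change was 0.026 (SE 0.16, 95% confidence interval -0.32 to 0.37), and from -0.098 (without H2A.Z dKO replicate 1) to 0.14 (without CTL replicate 1) with 1 library left out. The Six5 promoter with the MEF3 motif (Peak_14644, chr7:19679158-19679434) measured 191, 185 and 186 RPKM in CTL and 203, 158 and 175 RPKM in H2A.Z dKO. CTL was the tighter group and lay inside the range of the other, with a log2 fold change of -0.068 (SE 0.14). It was -0.20 without H2A.Z dKO replicate 1 and 0.022 without H2A.Z dKO replicate 2.

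The Six5 interval nearer to Dmpk (Peak_14643), whose window lies wholly within annotated exons, measured 161 to 198 RPKM in CTL and 140.3 to 178 RPKM in H2A.Z dKO, with a log2 fold change of -0.21 (SE 0.18), from -0.34 (without H2A.Z dKO replicate 1) to -0.13 (without H2A.Z dKO replicate 3) with 1 library left out. Eya3 had 141, 152 and 161 RPKM in CTL and 119.9, 177 and 135 RPKM in H2A.Z dKO over its promoter (Peak_8999), again overlapping, with a log2 fold change of -0.074 (SE 0.14). This was -0.23 without H2A.Z dKO replicate 2 and 0.028 without H2A.Z dKO replicate 1. The small intronic interval beside it (Peak_9000) had 20 to 29 counts per library and a log2 fold change of -0.29 (SE 0.26), or -0.14 without CTL replicate 3.

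Tead1, with the most intervals, had none with an unadjusted p under 0.05, and 6 of its 13 log2 fold changes were above 0 and 7 below. The internal promoter with the MEF2 box (Peak_16357) measured 106.5, 70.4 and 82.2 RPKM in CTL and 71.3, 98.2 and 104 RPKM in H2A.Z dKO. The groups overlapped throughout, with a log2 fold change of 0.058 (SE 0.18), with -0.071 without CTL replicate 2 and 0.25 without CTL replicate 1. At the first TSS the pair of intervals had 19 to 44 counts per library and lay at the 1.45th and 6.85th percentile of all promoter intervals by level. The leading distal interval (Peak_16365) measured 148, 127 and 110.2 RPKM in CTL and 105, 133 and 147 RPKM in H2A.Z dKO, with a log2 fold change of -0.022 (SE 0.19), from -0.13 (without H2A.Z dKO replicate 3) to 0.10 (without CTL replicate 1) with 1 library left out. The smallest p of the gene was at an intronic interval (Peak_16364) with a myogenic E-box in its window, outside the interval itself. CTL measured 82.8, 89.3 and 114 RPKM at this interval and H2A.Z dKO 49.9, 70.3 and 92.9 RPKM. The lowest library there was H2A.Z dKO replicate 1, and the log2 fold change was -0.41 (SE 0.26, unadjusted p = 0.129 in edgeR). It was -0.21 without that library and -0.66 without H2A.Z dKO replicate 3.

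Counts were also summed over the intervals of each gene, and 13412 protein-coding genes summed by the same rule were fitted together. These sums count fragment ends again where intervals overlap, as in the overlapping pairs of Myod1, Mef2c and Tead1. With the lower of overlapping intervals removed, the log2 fold change of Myod1 was -0.12 instead of -0.14. That of Mef2c was then 0.040 instead of -0.028, and that of Tead1 -0.028 instead of -0.046. None of the 9 genes passed an adjusted p of 0.05 or an unadjusted p under 0.05 in edgeR, where 0% and 4.48% of all genes did, and in none did the groups fail to overlap, against 10.6% of all (4.06% higher and 6.55% lower). The log2 fold change was above 0 for 4 of the 9, where 48.3% of all genes were so. The gene with the smallest p, Mef2d, measured 187, 193 and 166 CPM in CTL and 221, 189.8 and 188 CPM in H2A.Z dKO, with a log2 fold change of 0.13 (SE 0.096). Myf6 measured 46.5, 34.4 and 43.9 CPM in CTL and 43.3, 54.3 and 45.5 CPM in H2A.Z dKO, a log2 fold change of 0.19 (SE 0.14). Myod1 measured 158, 114 and 169 CPM in CTL and 125, 137 and 137 CPM in H2A.Z dKO, a log2 fold change of -0.14 (SE 0.13). Single libraries moved these values: Mef2d had 0.048 without H2A.Z dKO replicate 1 and 0.077 without CTL replicate 3, and Myf6 had 0.071 without CTL replicate 2, 0.091 without H2A.Z dKO replicate 2 and 0.29 without CTL replicate 1.

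The other 6 genes had log2 fold changes of their sums from -0.094 (Eya3) to 0.038 (Mef2a). With 1 library left out, that of Eya3 ranged from -0.24 (without H2A.Z dKO replicate 2) to -0.0081 (without H2A.Z dKO replicate 1), and the values lay on both sides of 0 for Mef2a (-0.043 to 0.14), Mef2c (-0.11 to 0.079), Six4 (-0.099 to 0.14) and Tead1 (-0.11 to 0.055). All 9 had a 95% confidence interval of the fold change within 1.5-fold, as 86.3% of all genes had (97.9% within 2-fold). The widest on the higher side was that of Myf6, up to 1.41 times CTL, and on the lower side that of Myod1, down to 0.753 times. Leaving out H2A.Z dKO replicate 1 took the sum of Six5 to -0.21, with an unadjusted p of 0.0296 and an adjusted p of 0.562 in edgeR, and leaving out any other library gave -0.069 to 0.048. Leaving out CTL replicate 2 took that of Myod1 to -0.29, with an unadjusted p of 0.0142 and an adjusted p of 0.998 in edgeR, while without CTL replicate 1 it was -0.081 and without CTL replicate 3 -0.031 (edgeR unadjusted p = 0.6005 and 0.824). Summed by family without the lower of overlapping intervals, the myogenic regulatory factors had 119.7 ± 21.1 CPM in CTL and 119.6 ± 8.54 CPM in H2A.Z dKO, and the MEF2 genes 398 ± 24.7 and 422 ± 36.1 CPM (each SD, n = 3). The sums of Six4, Six5 and Eya3 were 203 ± 1.55 and 197 ± 19.6 CPM and those of Tead1 165 ± 15.1 and 162 ± 19.6 CPM (each SD, n = 3). Two-sided exact permutation tests gave p = 1, 0.5, 0.7 and 0.8 for the 4 families.

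**Figure D4:**
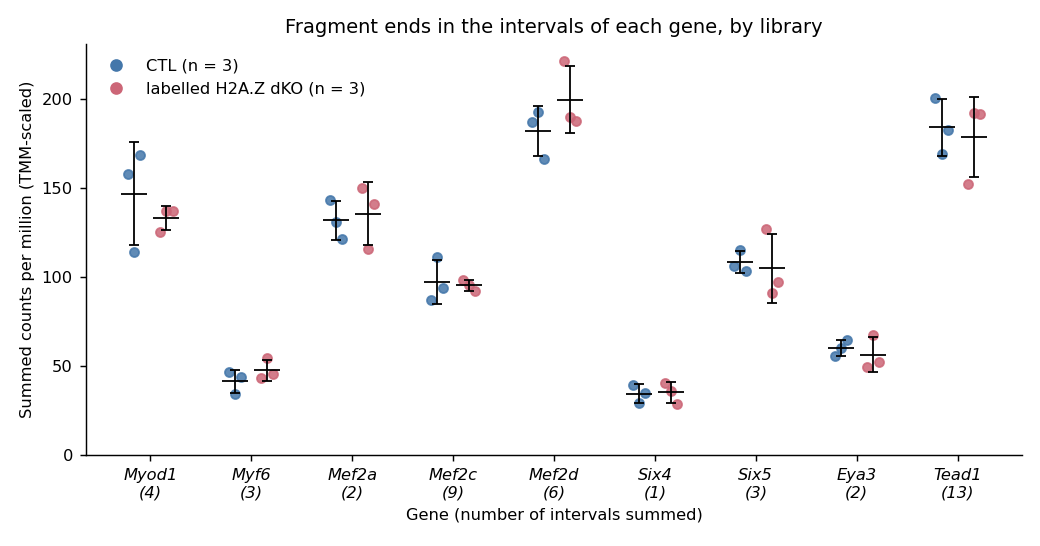
Sum of TMM-scaled CPM over the intervals of each gene (y axis, from 0) in each library, CTL in blue and H2A.Z dKO in red, with the mean and SD of 3 libraries; the number of intervals summed stands under each gene. The libraries of both groups overlap for each of the 9 genes, and the confidence intervals of all 9 fold changes lie within 1.5-fold. Fragment ends where intervals overlap are counted in each of them.

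The library that stands apart moved the members in the way it moved other intervals of their class. In H2A.Z dKO replicate 1 the median deviation from the mean of the 6 libraries was 0.12 (log2) at the 20 promoter intervals of the 9 genes and -0.13 at their 22 distal intervals, against 0.082 and -0.125 at all promoter and all distal intervals. In H2A.Z dKO replicates 2 and 3 the signs were opposite, with -0.016 and -0.041 at the promoters and 0.080 and 0.089 at the distal intervals of the 9 genes. In CTL the deviations of the members stayed between -0.030 and 0.062. Of the 4 members with an unadjusted p under 0.05, only Peak_29655 in the Mef2c intron still had one without this library.

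**Figure D5:**
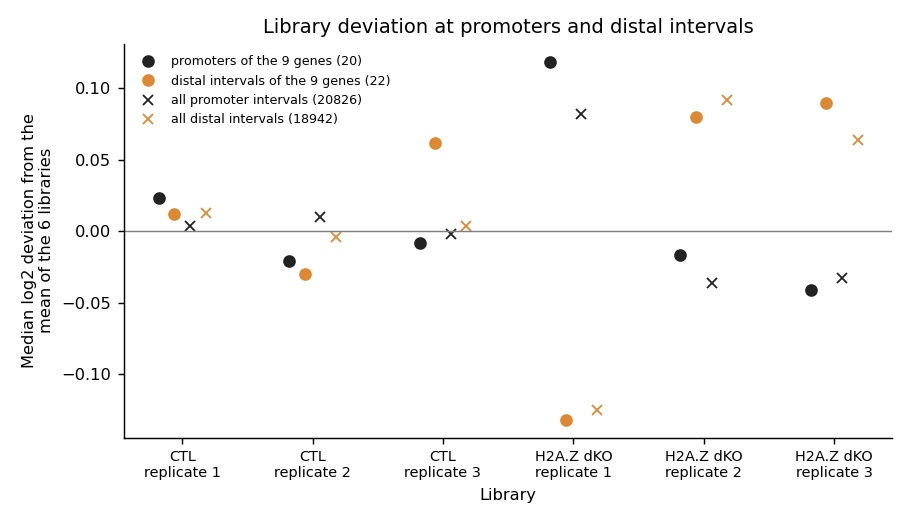
Median log2 deviation from the mean of the 6 libraries (y axis) in each library (x axis), for the promoters (black circles) and distal intervals (orange circles) of the 9 genes and for all promoter (black crosses) and distal (orange crosses) intervals. H2A.Z dKO replicate 1 is high at promoters (0.12) and low at distal intervals (-0.13) of the 9 genes, and in the H2A.Z dKO libraries the crosses lie on the same side of 0 as the circles.

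The partners and cofactors of these factors were read in the same gene sums. Of 50 related genes 42 had an interval. Those without included Myog, the helix-loop-helix factor of myocyte differentiation, Pax3 and Tead2. In edgeR 0 of 42 passed an adjusted p of 0.05, and 3 had an unadjusted p under 0.05, 2 higher and 1 lower, where 4.48% of all genes did (1.83% higher and 2.65% lower). Log2 fold changes were above 0 for 26 and below for 16, where 48.3% of all genes were above 0, with a median of 0.030, against -0.0052 for all genes, and the groups did not overlap at 4 higher and 2 lower genes, where 10.6% of all genes were so (4.06% higher and 6.55% lower).

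Tbx15, a T-box factor of glycolytic fibres, measured 64.9, 55.2 and 52.7 CPM in CTL and 78.6, 67.5 and 74.1 CPM in H2A.Z dKO. All 3 H2A.Z dKO libraries lay above CTL, and the log2 fold change was 0.34 (SE 0.12, unadjusted p = 0.0105 and adjusted p = 0.969 in edgeR). Nfix, a regulator of the switch from embryonic to fetal muscle, gave 0.22 (SE 0.10, unadjusted p = 0.0438 in edgeR) with overlapping groups, and 0.13 without H2A.Z dKO replicate 1. Carm1, an arginine methyltransferase that acts as a coactivator of MEF2, measured 234, 239 and 251 CPM in CTL and 210.0, 213 and 210.4 CPM in H2A.Z dKO. Its 3 H2A.Z dKO libraries lay below CTL, with a log2 fold change of -0.19 (SE 0.080, unadjusted p = 0.033 and adjusted p = 0.969 in edgeR).

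Of the TEAD cofactors, Yap1 and Vgll4 passed neither limit. Yap1, the coactivator of TEAD1, measured 51.6 to 52.1 CPM in CTL and 57.2 to 65.4 CPM in H2A.Z dKO, a log2 fold change of 0.22 (SE 0.11, unadjusted p = 0.064 in edgeR). Vgll4, which competes with YAP for TEAD factors, measured 153 to 177 CPM in CTL and 138 to 151 CPM in H2A.Z dKO, a log2 fold change of -0.18 (SE 0.088, unadjusted p = 0.0599 in edgeR). Both were chosen here after their values had been seen. By the mean over the 6 libraries, the highest promoter levels of the list were those of Tcf3, with 347 ± 17.8 RPKM in CTL and 373 ± 67.8 RPKM in H2A.Z dKO, Carm1 with 315 ± 12.6 and 276 ± 8.80 RPKM, and Id3 with 274 ± 26.5 and 271 ± 40.2 RPKM (each SD, n = 3). By CTL alone Smarcd3, with 275 ± 44.5 RPKM (SD, n = 3) at an interval of 17 bp, stood level with Id3. Mkl1 with 270 RPKM and Srf with 269 RPKM in CTL were close to it. The order of Tcf3, Carm1 and Id3 holds for the widths as deposited, the Tcf3 interval being 91 bp wide. With the enlarged width, by CTL, Carm1 led with 300.5 ± 12.1 RPKM in CTL, followed by another Tcf3 promoter interval with 271 ± 6.31, and by Mkl1 and Id3 with 254 ± 3.64 and 248 ± 24.0 RPKM (each SD, n = 3). Tcf3 encodes the E proteins that pair with MyoD and MRF4, and Id3 an inhibitor that binds E proteins in their place. The 2 intervals assigned to Myf5 are the promoter intervals of Myf6, which come within 10 kb of its TSS.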

How the data were processed

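ATAC-seq libraries of mouse muscle nuclei were analysed, 3 CTL and 3 labelled H2A.Z dKO, grouped by the sample labels. The authors trimmed adapters with Trimmomatic, aligned to mm9 with Bowtie in the methods (Bowtie2 in the submitters' processing notes), removed duplicates with Picard, shifted ends for Tn5 and called peaks with MACS2. The authors deposited raw counts of fragment ends, extended by 37 bp, per union interval. The methods give a larger number of union intervals than the 39768 of this table, so a gene without an interval, and every share of all intervals, refers to this table only. They also deposited a mean of scaled counts and their DESeq2 comparison (log2 fold change, its standard error, a test statistic, p and adjusted p), which were not used. Whether interval starts count from 0 or 1 is not stated, so intervals are printed as deposited.

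Member genes and lists were chosen with earlier results of these data known. Intervals were annotated with GENCODE vM1 and sequences read from the mm9 genome; 21 of 21 chromosomes of the table are in it, and 2 intervals, 0 of them members, end past a chromosome end. Counts were fitted with edgeR 4.0.16 in R 4.3.3 (TMM factors 0.971 to 1.02, robust quasi-likelihood, no filter, biological coefficient of variation 0.126 for intervals and 0.0947 for gene sums) with Benjamini-Hochberg adjustment over all intervals or genes. DESeq2 1.42.0 and limma 3.58.1 were alternatives, as were other scalings, a filter at a mean of 20 counts, a replicate block, other member rules and each library left out. The fit was tested on simulated data. RPKM divide counts by interval width (end minus start) and by the counts in all intervals. CPM are scaled by TMM. Exact permutation tests covered 20 assignments of the 6 libraries. Errors hold counting noise and the differences among 3 libraries, not leftover PCR copies. Python 3.11.15 and pandas 2.3.3 were used for tables. Named one by one were, for each gene, the leading promoter and distal intervals and that with the smallest p, and the 3 smallest p in each direction over the members; of the related genes, those with an unadjusted p under 0.05 and the 3 highest promoter levels. Other intervals were named after their values had been seen. Reads, RNA-seq and ChIP-seq were not analysed here.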

Additional observations from a re-analysis of the deposited data

How the results depend on the processing

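No member interval, member gene or interval of the whole table passed an adjusted p of 0.05 under any alternative tried, and the smallest adjusted p over them was 0.59 for a named interval and 0.562 for a member gene. The 4 members with an unadjusted p under 0.05 became 2 with DESeq2 (1.9% of all intervals) and 2 with a mean of at least 20 counts (4.02% of the intervals left), and 1 to 4 when a library was left out: without CTL replicate 1 there were 2 (4.92% of all intervals), and leaving out CTL replicate 3 gave 1 (3.18%), as did leaving out H2A.Z dKO replicate 1 (7.95%). Their median log2 fold change of 0.058 became 0.014 with intervals in the gene body or within 1 kb of a TSS only, and ranged from -0.018, when CTL replicate 2 was left out, to 0.090, when CTL replicate 1 was, with -0.0077 without H2A.Z dKO replicate 1, 0.0097 without H2A.Z dKO replicate 2 and 0.014 without H2A.Z dKO replicate 3. The cause was not tested. The sum of Myod1, Myf6, Mef2d and Eya3 each kept its sign, 5 genes changed theirs in some alternative, and 9 of 22 named intervals did so. Replicate numbers did not pair the libraries (correlations of same-numbered libraries -0.12, -0.064 and -0.052). With a replicate block 0 intervals passed the adjusted limit, 4 members had an unadjusted p under 0.05 (4.42% of all intervals) and the median was 0.064. At a median of 68.5 counts per library, 18 of 43 members had a confidence interval within 1.5-fold, as 49.6% of all intervals had.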

Other observations

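A column of the deposited table says in which group an interval was found. Of the 43 members 29 were listed for H2A.Z dKO alone (67.4%, against 43.4% of all intervals), 8 for both groups (18.6%, against 38.7%) and 6 for CTL only (13.95%, against 17.9%). At promoter members 47.6% were listed for H2A.Z dKO only, against 31.7% of all promoter intervals, and at distal members 86.4%, against 56.3% of all distal intervals. The listing uses the same libraries as the comparison and was not tested. All 13 Tead1 intervals were listed for H2A.Z dKO only, while their log2 fold changes ran from -0.41 to 0.19. The median log2 fold change of the 29 members listed for H2A.Z dKO only was 0.11, against 0.11 for all 17264 intervals so listed, and the Mef2c interval with the lowest log2 fold change of the 43 was among them.

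Just beyond the limit of 10 kb, the nearest interval outside lay 10706 bp from the Six5 TSS, at a promoter of Dmpk, and 15344 bp from the Six4 TSS, with a mean of 16.3 counts per library. The nearest beyond Mef2c was 296221 bp away.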
